A study of Mus musculus with 12 samples.

Results

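The proteasome genes of the mouse and their transcription factor Nfe2l1 were followed through amino acid withdrawal and re-addition in MIN6 cells. The members are the genes whose symbol is Psma to Psmg followed by a number, plus Nfe2l1. They were picked by symbol, with earlier results of these data known. They number 49 of the 49315 genes in the deposited tables: 8 Psma and 11 Psmb genes of the 20S core, 6 Psmc and 14 Psmd genes of the 19S cap, 4 Psme activators with the inhibitor Psmf1, 4 Psmg assembly chaperones, and Nfe2l1. Of these, 47 had enough reads to be tested. Psma8, the core subunit of the testis, had 5 reads over all 12 libraries, and Psmb11, that of the thymus cortex, had 1.

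MIN6 is a mouse pancreatic beta cell line, labelled as wild type throughout, and its total RNA was sequenced in 12 libraries, 3 per group. The Rap group received amino acids together with Rap for 3 h, the re-added group received amino acids alone for 3 h, the starved group went without amino acids for 16 h, and the control group was not starved. The labels do not spell out Rap or its dose, and they do not say how long the Rap and re-added cells had been without amino acids beforehand. Nothing states that replicate libraries were grown as separate cultures; the p-values therefore reflect library-to-library spread, which may be technical. The series is about signalling from amino acids through mTORC1, the kinase complex that senses them, and the design asks what starvation changes, what re-addition reverses, and whether this differs with Rap.

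The proteasome degrades proteins tagged with ubiquitin. Its 20S core is a barrel with alpha rings at its ends and beta rings between them, and the beta rings hold the cutting sites, while the 19S cap holds the ATPases that unfold the substrate and the subunits that bind and remove ubiquitin. In mammalian cells NFE2L1, a membrane-bound factor of the endoplasmic reticulum, is released by extraction, deglycosylation and cleavage, and it then switches on the subunit genes together when proteasome capacity is short. In mouse fibroblasts, mTORC1 activity has been tied to NFE2L1 and to subunit transcription.

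The libraries held 18555958 to 25631056 counted reads, and the tested members had 148 to 10705 reads in each. The sum of 10 beta cell markers was high in every library, at 31219 to 55257 CPM (counts scaled to a common library total). Not each listed gene was high. Slc2a2 had 1.01 to 1.54 CPM in starved and 8.81 to 10.5 CPM in control libraries, and Ucn3 had 0.424 to 1.48 CPM over all libraries. Markers of other cells, 30 genes of fibroblasts, leukocytes and endothelium with none at 0 in all libraries, did not follow the groups alone. Their sum was 101, 97.9 and 96.2 CPM in the Rap libraries, 817, 111 and 109 in the re-added, 2026, 121 and 957 in the starved, and 2063, 2452 and 2345 in the control libraries. Re-added replicate 1 and starved replicates 1 and 3 thus stood apart from the others of their groups. A 4-gene lung list, with none at 0 in all libraries, stood apart in the same libraries. The lung gene Sftpc, a surfactant protein, had 12.7 to 16.3 CPM in Rap libraries, 19.9 to 280 in re-added, 30.3 to 608 in starved and 635 to 751 in control libraries. Such markers do not belong to a beta cell line. Their source, possible contamination or sample mixing included, was not tested. Values that move with these markers, those of the immunoproteasome genes below among them, may not be those of MIN6 cells alone. In bulk RNA, fewer cells of a type and less RNA per cell cannot be told apart.

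Levels between genes were compared in TPM, the authors' reads per exon length scaled to a common total. Among the constitutive beta genes, Psmb5 had the highest mean in all 4 groups, 539 ± 37.2 TPM in Rap, 618 ± 21.6 in re-added, 462 ± 23.7 in starved and 747 ± 63.1 in control libraries (SD, n = 3 each). Psmb3, a structural beta subunit present in the core at the same copy number, was the lowest, with 121 ± 1.83 TPM in Rap, 130.1 ± 4.85 in re-added, 83.5 ± 3.66 in starved and 157 ± 17.5 in control libraries. The ratio of the highest to the lowest beta gene was 4.44 in Rap, 4.75 in re-added, 5.54 in starved and 4.75 in control libraries. These ratios depend on the exon lengths by which TPM divides, 871 bases for Psmb5 and 2300 for Psmb3. In CPM, which uses no length, control libraries averaged 246 for Psmb5 and 137 for Psmb3. Among alpha genes Psma6 was highest in each group, among ATPase genes Psmc1, and among the other cap genes Psmd2. The lowest Psmd gene in TPM was Psmd9, a chaperone of cap assembly rather than a stable subunit, at 18.1 TPM in Rap, 20.2 in re-added, 23.3 in starved and 20.02 in control libraries. Its exon length is 7248 bases, against 1469 for Psmd10. In CPM Psmd10 was lower than Psmd9, at 35.6 against 54.9 in control libraries.

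Promoter windows of 41 of the 49 members were found in RefSeq (GRCm38.p6), each 250 bases before and 50 after a start site. No window was found for Psma8, Psmb1, Psmb2, Psmb7, Psmc3, Psmd3, Psmd7 and Psmg2. The core of the element read by NFE2L1, TGACNNNGC on either strand, was present in 6 of the 41 members (14.6%), against 3781 of 27025 genes (14%) in the same table. The pentamer CCAAT, on either strand, was in 15 of 41 members (36.6%), against 41.1% of all genes. The 250 bases before the start are shown for Psmb5 and Psmb6, the catalytic subunits with a match, for Psmd12, a cap subunit with a match whose mRNA was lower with Rap, and for Psmc5, an ATPase without a match whose mRNA was also lower with Rap. Capitals mark the match. The windows are chr14:54617996-54618245 (minus strand) for Psmb5, chr11:70525107-70525356 (plus) for Psmb6, chr11:107479278-107479527 (plus) for Psmd12 and chr11:106255935-106256184 (plus) for Psmc5.
Psmb5: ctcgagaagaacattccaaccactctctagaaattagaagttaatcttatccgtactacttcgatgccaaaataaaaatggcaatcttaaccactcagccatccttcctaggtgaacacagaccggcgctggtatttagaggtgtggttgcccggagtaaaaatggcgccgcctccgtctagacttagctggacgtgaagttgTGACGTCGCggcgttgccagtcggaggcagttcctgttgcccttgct
Psmb6: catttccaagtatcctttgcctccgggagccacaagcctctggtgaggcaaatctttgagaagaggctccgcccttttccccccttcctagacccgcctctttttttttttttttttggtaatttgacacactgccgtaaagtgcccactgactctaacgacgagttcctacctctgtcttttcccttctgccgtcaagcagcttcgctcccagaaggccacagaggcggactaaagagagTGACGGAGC
Psmd12: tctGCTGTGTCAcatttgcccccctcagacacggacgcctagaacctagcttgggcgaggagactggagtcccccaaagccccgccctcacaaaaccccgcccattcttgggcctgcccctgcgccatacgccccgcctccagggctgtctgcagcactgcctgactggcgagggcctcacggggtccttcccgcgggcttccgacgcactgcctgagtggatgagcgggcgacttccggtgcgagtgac
Psmc5: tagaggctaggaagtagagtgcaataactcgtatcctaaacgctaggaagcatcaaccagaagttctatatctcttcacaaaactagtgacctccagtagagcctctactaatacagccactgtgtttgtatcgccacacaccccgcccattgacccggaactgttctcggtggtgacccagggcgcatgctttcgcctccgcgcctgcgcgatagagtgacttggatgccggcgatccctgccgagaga
The Psmb5 match lies at positions -47 to -39 from the start, the Psmb6 match at -9 to -1 and the Psmd12 match, on the other strand, at -247 to -239. The remaining matches were in Psmc6, Psmd9 and Psme4. For Psmc5 and Psmd12 the RefSeq start lies inside the gene span of the count tables, so the last bases shown overlap that span. Of the members lower with Rap, 2 of 10 with a window had a match, against 4 of 30 of the other tested members. A match is a description of these letters only, and a window without one says nothing about binding elsewhere.

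Starved cells were compared with control cells to see what amino acid withdrawal did to these mRNAs. The constitutive 20S core fell: all 14 tested genes, 7 alpha and 7 beta, were lower in starved cells, with log2 fold changes of -1.05 to -0.58 and a median of -0.71. Of the 20 Psmc and Psmd genes, here called the 19S cap, 14 were lower, with a median of -0.30. This set includes the assembly chaperones Psmd5, Psmd9 and Psmd10. It leaves out Adrm1, a cap receptor whose symbol lies outside the rule. The difference between core and cap was not tested. Nfe2l1 was the sole member that rose. In all, 33 of 47 members were lower (70.2%) and 1 was higher (2.13%), against 14.6% lower and 24.3% higher (38.9% in all) among the 16844 genes tested, with an all-gene median of 0.01. Of the 34 calls, 26 held under all 17 alternatives tried, those of all 14 core genes among them.

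Among the catalytic subunits, Psmb5, which carries the chymotrypsin-like site (chr14:54614120-54617995, minus strand), had 128, 141 and 149 CPM in starved libraries, against 245, 284 and 209.5 CPM in control libraries. Its log2 fold change of -0.82 ± 0.11 (SE, adjusted p = 0.000174) came from groups that did not overlap. Psmb6, the caspase-like subunit (chr11:70525367-70527858, plus), had 127, 135 and 140.2 CPM in starved libraries, against 223, 282 and 210.0 CPM in control libraries. Psmb7, the trypsin-like subunit (chr2:38588036-38644087, minus), had 133, 143 and 146 CPM in starved libraries, against 249, 264 and 216 CPM in control libraries. For both genes the starved libraries were again all below the control libraries, at log2 fold changes of -0.83 (adjusted p = 0.000111) for Psmb6 and -0.79 (adjusted p = 2.44e-05) for Psmb7. Psmb7 shares 11.8% of its exon length with Nek6 on the other strand, and with no stated strand setting reads there may be shared. Over all libraries Nek6 had 3896 reads, against 49436 for Psmb7. The largest fall of any member was that of Psmb3 (chr11:97703399-97713500, plus), with 64.4, 69.1 and 65.5 CPM in starved libraries, against 133, 164 and 114 CPM in control libraries. Its log2 fold change of -1.05 ± 0.11 (SE, adjusted p = 2.84e-05) means that the starved level was 0.483 of the control level. In the alpha rings, which gate the entry to the core, Psma5 fell most (chr3:108256926-108279974, plus), with 58.2, 59.8 and 59.6 CPM in starved libraries, against 99.6, 117 and 88.3 CPM in control libraries. Every starved library lay below every control library, at a log2 fold change of -0.78 ± 0.09 (SE, adjusted p = 5.47e-05).

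In the cap, 5 of 6 ATPase genes and 9 of 14 Psmd genes were lower in starved cells. Psmc5, an ATPase of the ring that docks on the core (chr11:106256154-106263120, plus), had 108, 117 and 122 CPM in starved libraries, against 187, 203 and 172 CPM in control libraries. The groups did not overlap, at a log2 fold change of -0.69 ± 0.08 (SE, adjusted p = 4.09e-05). Psmd13, a scaffold subunit of the lid (chr7:140881968-140898643, plus), had 87.0, 102 and 96.4 CPM in starved libraries, against 187, 208 and 148 CPM in control libraries, a log2 fold change of -0.93 ± 0.11 (SE, adjusted p = 6.66e-05). Psmd14, the deubiquitinase of the lid, followed at -0.79 (adjusted p = 0.0001), and Psmd4, a ubiquitin receptor, at -0.45 (adjusted p = 0.00101). The 6 cap genes that did not pass were Psmc6, Psmd3, Psmd5, Psmd9, Psmd11 and Psmd12, with log2 fold changes of -0.20 to 0.09. Psmd5 and Psmd9 encode chaperones of cap assembly, as does Psmd10, which passed narrowly at -0.27 (adjusted p = 0.0492) and lost the call in 12 of 17 alternatives. Psmd13 shares 10.1% of its exon length with Sirt3 on the other strand, and with no stated strand setting reads in that stretch may be shared. Over all libraries Sirt3 had 4235 reads, against 33302 for Psmd13.

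Of the activators, both subunits of the interferon-inducible ring fell. Psme2 (chr14:55587441-55591113, minus) had 109, 87.4 and 98.3 CPM in starved libraries, against 162, 192 and 148 CPM in control libraries, a log2 fold change of -0.77 ± 0.12 (SE, adjusted p = 0.000378), and Psme1 had a log2 fold change of -0.44 (adjusted p = 0.00505). Psme1 had 104, 91.2 and 99.1 CPM in starved libraries, against 129, 156 and 116 CPM in control libraries. Within the starved group Psme1 and Psme2 followed the order of the marker sum, highest in replicate 1 and lowest in replicate 2. Starved replicate 1, at the marker level of the controls, lay below every control library for both genes. How much of the fall belongs to MIN6 cells was not tested. Psme2b, a copy of Psme2 named outside the rule, had 1698 reads over all libraries, and reads of Psme2 and Psme2b may be split between them. The nuclear activators Psme3 and Psme4 and the inhibitor Psmf1 did not pass, at -0.01, 0.11 and 0.08. Of the assembly chaperones, which pair up to build the alpha ring, Psmg4 (chr13:34162964-34178172, plus) had 10.4, 8.98 and 11.2 CPM in starved libraries, against 14.7, 22.4 and 14.4 CPM in control libraries. Its log2 fold change of -0.75 ± 0.17 (SE, adjusted p = 0.00419) and that of Psmg1, -0.40 (adjusted p = 0.0141), passed, whereas Psmg2 at -0.25 and Psmg3 at -0.31 did not.

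Nfe2l1 moved against the subunits (chr11:96817414-96829968, minus). It had 293, 320.4 and 301 CPM in starved libraries, against 205, 194 and 229 CPM in control libraries. Starved replicate 1, whose marker level was close to that of the controls, lay with the other starved libraries, above every control library. The log2 fold change of 0.54 ± 0.07 (SE, adjusted p = 0.000172) passed under all 17 alternatives, at 0.40 to 0.67. Counts report the mRNA and not the processing of the protein, which was not measured.

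**Figure D1:**
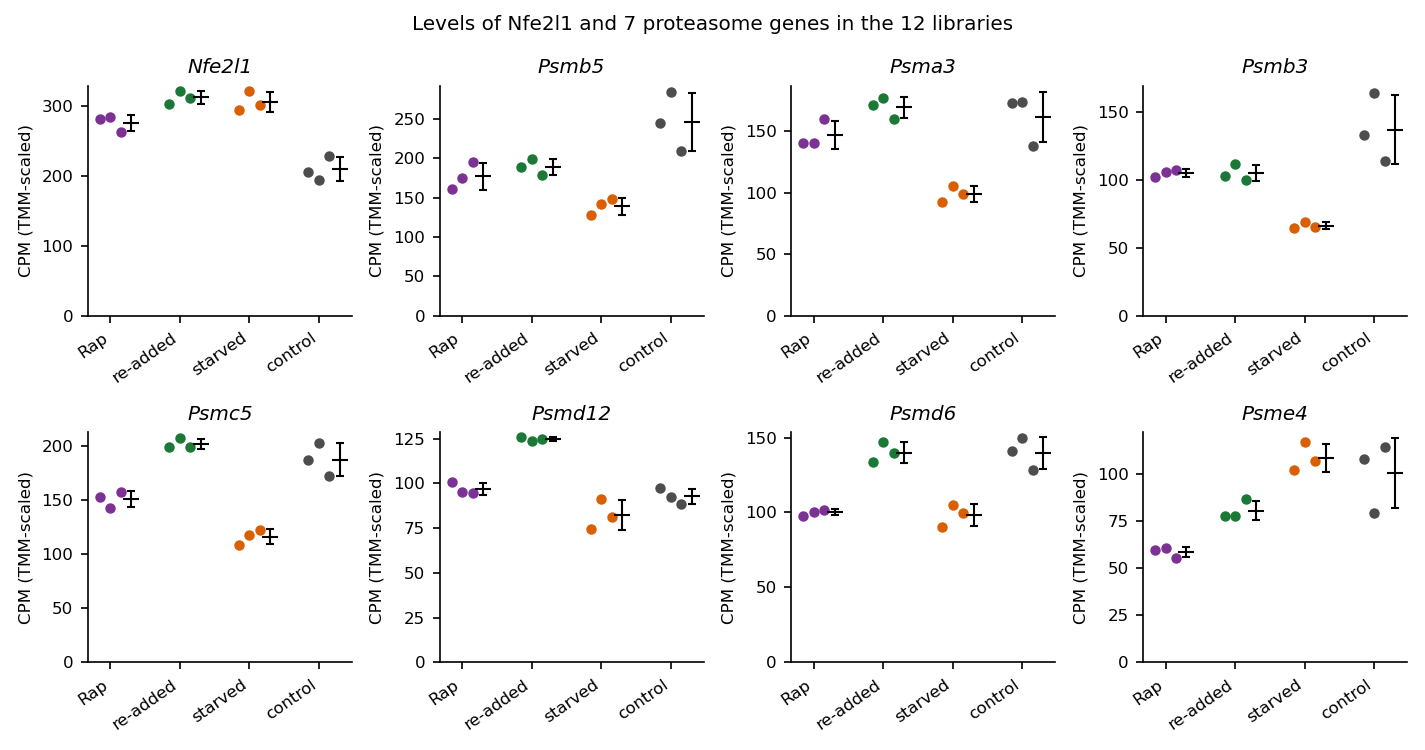
TMM-scaled CPM of 8 members in each of the 12 libraries, by group (Rap, re-added, starved, control); points are libraries and bars the mean ± SD of 3. In starved libraries Psmb5, Psma3, Psmb3 and Psmc5 lie below every control library, whereas Nfe2l1 lies above; Psmc5, Psmd6 and Psmd12 are lower in every Rap library than in any re-added library.

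Re-added cells were compared with starved cells to see what returned within 3 h. Nearly all of the core and most of the cap rose: 13 of 14 constitutive 20S genes and 14 of 20 cap genes were higher in re-added cells, with medians of 0.42 for the core and 0.45 for the cap. In all, 30 of 47 members were higher (63.8%) and 1 was lower, against 18.4% higher and 18.8% lower (37.3% in all) of all genes tested, whose median was -0.06. Nfe2l1 was not called. Both comparisons use the starved libraries, so a gene measured low there by chance would appear in each; 25 members were lower in starved than control cells and higher in re-added than starved cells.

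The largest rise of a core gene was in Psma3, an alpha subunit (chr12:70974621-70996347, plus). It had 172, 177 and 160.0 CPM in re-added libraries, against 92.1, 105 and 98.6 CPM in starved libraries, a log2 fold change of 0.78 ± 0.10 (SE, adjusted p = 8.21e-05). The control libraries, at 173, 174 and 138 CPM, overlapped the re-added ones. Psmb3 rose most among the beta genes, with 103, 112 and 100.4 CPM in re-added libraries, a log2 fold change of 0.66 ± 0.11 (SE, adjusted p = 0.000546) over starved. All re-added libraries of Psmb3 stood above the starved and below the control libraries. The catalytic genes rose too: Psmb5 had 189, 199 and 179 CPM in re-added libraries (log2 fold change 0.44 over starved, adjusted p = 0.00843). For Psmb6 the re-added libraries had 206, 199.99 and 185 CPM (0.55, adjusted p = 0.00147), and for Psmb7 they had 205, 208 and 193 CPM (0.53, adjusted p = 0.000326). Each of these re-added values was above every starved value of its gene. Psma5, at 76.7, 75.9 and 73.6 CPM in re-added libraries, rose by less (0.35, adjusted p = 0.00903), and Psma1 was the core gene that did not pass (0.25, adjusted p = 0.0519).

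In the cap, Psmc5 had 199, 207 and 199 CPM in re-added libraries, against 108, 117 and 122 CPM in starved libraries. This log2 fold change of 0.80 ± 0.08 (SE, adjusted p = 9.89e-06) was the largest rise among the members. Psmd1, the scaffold of the cap base (chr1:86064387-86139151, plus), had 235, 250.3 and 233 CPM in re-added libraries, against 141, 152 and 145 CPM in starved libraries, a log2 fold change of 0.71 ± 0.07 (SE, adjusted p = 1.86e-05). Its control libraries had 221, 215 and 186 CPM, all below the re-added ones. Psmd12, a lid scaffold (chr11:107479484-107504362, plus), did not pass on starvation and yet rose on re-addition: it had 126, 124 and 125 CPM in re-added libraries, against 74.7, 91.4 and 81.4 CPM in starved and 97.3, 92.3 and 88.7 CPM in control libraries. Its log2 fold change of 0.60 ± 0.08 (SE, adjusted p = 8.2e-05) placed all 3 re-added libraries above the other 6. Psmd3 and Psmd11, also lid scaffolds, likewise did not pass on starvation and rose on re-addition, with log2 fold changes of 0.56 (adjusted p = 0.000407) and 0.29 (adjusted p = 0.00568). The assembly chaperones of the cap did not pass: Psmd5 was at 0.17, Psmd9 at -0.18 and Psmd10 at -0.24.

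Among the activators, 1 gene rose and 1 fell. Psme3 had 132, 140.5 and 140.0 CPM in re-added libraries, against 99.0, 116 and 104 CPM in starved libraries, and rose by 0.37 on the log2 scale (adjusted p = 0.00111). Psme4, the single-chain activator of the nucleus (chr11:30771726-30880361, plus), was the one member that fell, with 77.7, 77.8 and 86.6 CPM in re-added libraries, against 102, 117 and 107 CPM in starved libraries, a log2 fold change of -0.43 ± 0.12 (SE, adjusted p = 0.0122). Psme1 (0.16) and Psme2 (0.23) did not pass. Psmg1, a chaperone of the alpha ring (chr16:95979933-95990960, minus), had 51.6, 54.7 and 49.3 CPM in re-added libraries, against 31.6, 36.6 and 34.3 CPM in starved libraries, a log2 fold change of 0.60 ± 0.11 (SE, adjusted p = 0.0012), and Psmg3 passed as well (0.42, adjusted p = 0.0189). Nfe2l1 had 303, 322 and 312 CPM in re-added libraries, which overlapped the starved libraries (log2 fold change 0.03 ± 0.07 SE, adjusted p = 0.745). Limited to libraries with like marker levels, which leaves starved replicate 2 against re-added replicates 2 and 3, 15 members rather than 31 were called; Psmb3, Psmb6, Psmb7, Psma3, Psmc5, Psmd1, Psmd12 and Psmg1 were among the 15.

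**Figure D2:**
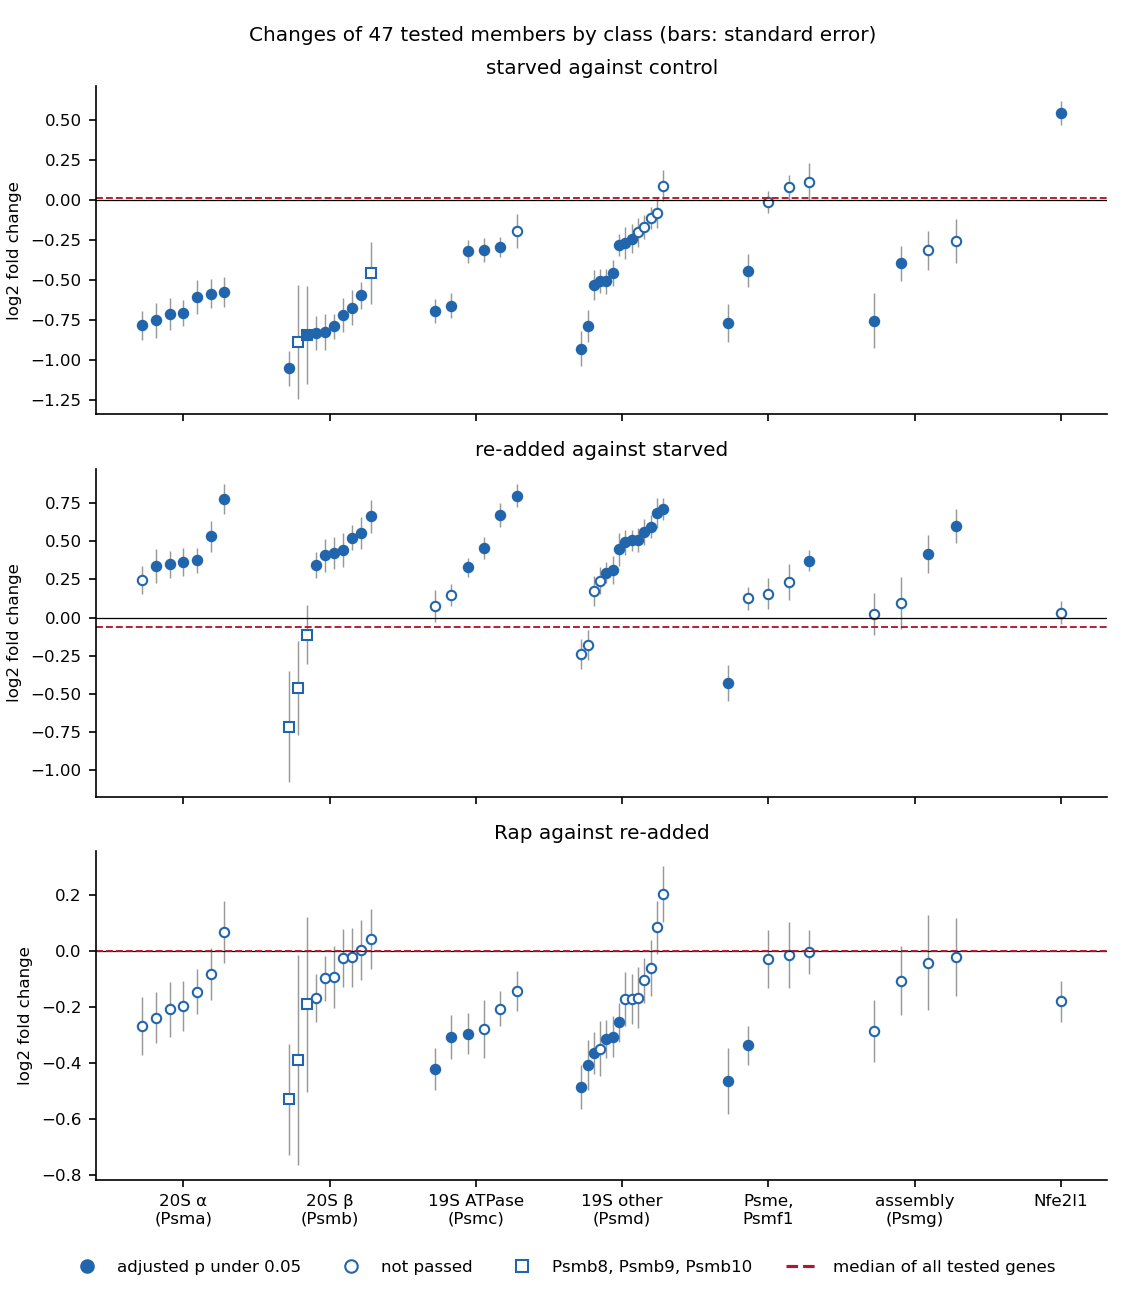
Log2 fold change of each of the 47 tested members by class in the 3 main comparisons (starved against control, re-added against starved, Rap against re-added); filled symbols passed an adjusted p of 0.05, bars are SE, squares are Psmb8, Psmb9 and Psmb10, and dashed lines mark the median of all genes. The core has a median of -0.71 and the cap of -0.30 in the first comparison, both medians lie above 0 in the second, and in the third the passing genes are cap subunits and activators, all below 0.

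Rap cells were compared with re-added cells to see whether the return differed in the presence of Rap. Of the 20 cap genes 9 were lower with Rap (median -0.27), and of the 14 constitutive core genes 0 were called (median -0.10). At an unadjusted p under 0.05, 3 of the 14 core genes (Psma1, Psma4 and Psma5) were lower. Other fits called some of them lower: DESeq2 1 of 14, edgeR on the 6 libraries alone 6 of 14, and limma on TPM 7 of 14 (median -0.20), where the cap counts were 12, 16 and 15 to 16 of 20. Of all genes, these fits called 1171, 2130 and 1116 to 1443 lower, against 578 in the main fit. The other genes that fell were the activators Psme3 and Psme4. In all, 11 of 47 members were lower (23.4%) and 0 were higher, against 3.43% lower and 4.55% higher (7.98% in all) of all genes tested, whose median was 0.00. No test of the difference between core and cap was made.

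Of the cap genes, Psmc5 had 152, 143 and 157 CPM in Rap libraries, against 199, 207 and 199 CPM in re-added libraries. All Rap libraries lay below all re-added ones and above the starved ones, at a log2 fold change of -0.42 ± 0.08 (SE, adjusted p = 0.00519). Psmd6, a lid subunit (chr14:14112184-14120984, minus), had 97.9, 100.5 and 102 CPM in Rap libraries, against 133, 147 and 139 CPM in re-added libraries. This log2 fold change of -0.49 ± 0.08 (SE, adjusted p = 0.00251) was the largest among the members that passed. Rap libraries of Psmd6 overlapped the starved ones, at 90.2, 105 and 99.9 CPM, while its re-added libraries overlapped the control ones, at 141, 149 and 128 CPM.  Psmd12 had 101, 95.5 and 94.7 CPM in Rap libraries, below every re-added library (-0.36, adjusted p = 0.0116). Psmd1 had 189, 196 and 196 CPM in Rap libraries, also below every re-added library (-0.31, adjusted p = 0.0249). Psmd2, which binds ubiquitin-like shuttles, was at -0.31 (adjusted p = 0.0145) and Psmd3 at -0.41 (adjusted p = 0.015). The ATPases Psmc1 and Psmc4 were at -0.29 (adjusted p = 0.0281) and -0.31 (adjusted p = 0.0323), and Psmd11 at -0.25 (adjusted p = 0.0446).

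In the fit of all 12 libraries the core genes did not pass. Psmb5 had 161, 175 and 196 CPM in Rap libraries, overlapping the re-added libraries (-0.09, adjusted p = 0.662). Psmb3 had 102, 106 and 108 CPM in Rap libraries (log2 fold change 0.00 ± 0.11 SE, adjusted p = 0.988), Psmb6 had 188, 183 and 209 CPM (-0.02) and Psmb7 had 185, 185 and 197 CPM (-0.10). Psma3, at 140.3, 140.0 and 160.0 CPM in Rap libraries, and Psma5, at 65.5, 63.0 and 68.9 CPM, had lower estimates (-0.21 and -0.20) that did not pass. A p above the threshold does not show that Rap left these genes alone.

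Psme4 had 59.8, 60.7 and 55.3 CPM in Rap libraries, against 77.7, 77.8 and 86.6 CPM in re-added libraries, a log2 fold change of -0.46 ± 0.12 (SE, adjusted p = 0.0328). It was the member that stood lower in re-added than starved and lower again in Rap cells. Psme3 had 106, 112 and 108 CPM in Rap libraries, against 132, 140.5 and 140.0 CPM in re-added libraries (-0.34, adjusted p = 0.0101), and the Rap values overlapped the starved and control values. Nfe2l1 had 281, 284 and 262 CPM in Rap libraries, all below the re-added libraries, but did not pass (log2 fold change -0.18 ± 0.07 SE, adjusted p = 0.171). Psmg1 had 38.9, 42.4 and 46.4 CPM in Rap libraries (-0.29, adjusted p = 0.148) and was not called, nor was Psmg4, with 11.1, 9.32 and 11.3 CPM in Rap and 10.4, 10.6 and 11.6 CPM in re-added libraries. Of the 11 calls, those of Psmc5 and Psmd6 held under every alternative (16 different fits, since libraries with like marker levels here means leaving out re-added replicate 1), and the others each lost their call when at least 1 library was left out. The number of members called was 3 without Rap replicate 1, 3 without Rap replicate 2, 4 without Rap replicate 3, 10 without re-added replicate 1, 3 without re-added replicate 2 and 2 without re-added replicate 3. It was 27 in a fit of the 6 libraries alone and 24 to 26 with limma on TPM, and no member was called higher in any of these. The calls among all genes moved with the fit too. They were 766 higher and 578 lower of 16844 in the main fit, and 1829 and 2130 of 15187 with 6 libraries. Without re-added replicate 3 they were 390 and 245 of 17146.

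Rap cells were also set directly against starved cells. In Rap cells 19 of 47 members were higher (40.4%) and 3 were lower (6.38%), against 20.2% higher and 23.9% lower (44.1% in all) of all genes tested. The higher ones were 10 of 14 core genes, 8 of 20 cap genes and Psmg1. Psmb3 was 0.67 (adjusted p = 0.000644), Psma3 0.57 (adjusted p = 0.000895) and Psmc5 0.38 (adjusted p = 0.00244) on the log2 scale, while Psmd6 was 0.03 (adjusted p = 0.81). The lower ones were Psme4, at -0.89 (adjusted p = 0.00015), Psmb9 and Psmb10. Among libraries with like marker levels 9 members were called, 7 of them higher, without Rap replicate 3 the number was 12 and without starved replicate 1 it was 14.

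Re-added cells were last compared with control cells. Of the 14 core genes 10 were lower in re-added cells (median -0.28), and of the 20 cap genes 5 were higher and 2 lower (median 0.02). In all, 19 of 47 members were lower (40.4%) and 8 higher (17.0%), against 24.5% lower and 24.8% higher (49.3% in all) of all genes tested. Psma5 was -0.43 (adjusted p = 0.00271), Psmb3 -0.38 (adjusted p = 0.0134) and Psmd13, with 135, 132 and 122 CPM in re-added libraries, -0.48 (adjusted p = 0.0046). Psmd12 was 0.43 (adjusted p = 0.00106), Psmd3 0.36 (adjusted p = 0.00722) and Psme3 0.36 (adjusted p = 0.00158). Nfe2l1 remained higher, at 0.58 (adjusted p = 0.000141). These groups differ in the marker sum, and with it as a covariate 4 members were called, 1 higher and 3 lower. Of all genes, 1437 were then higher and 1421 lower, rather than 4172 and 4132. Without re-added replicate 3 the number of members called was 12, and without re-added replicate 2 it was 17.

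**Figure D3:**
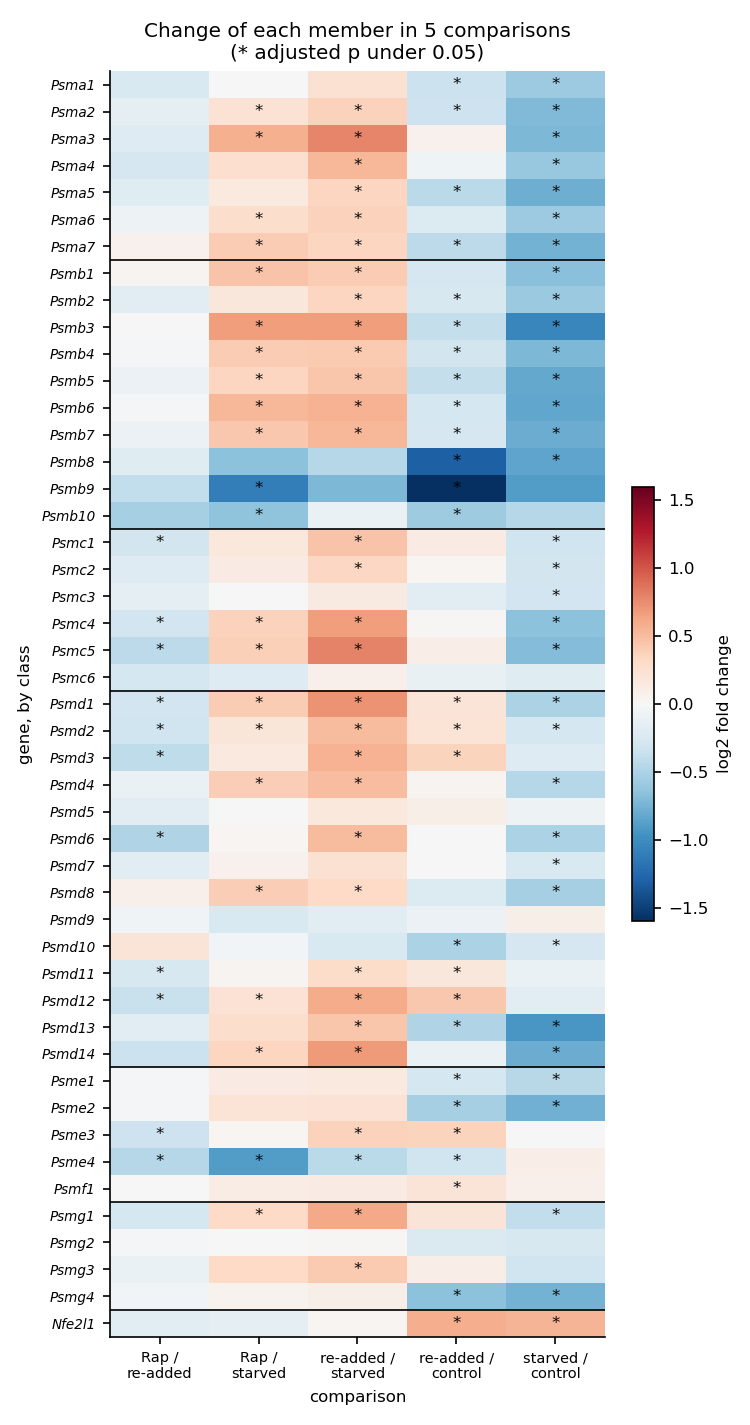
Log2 fold changes of the 47 tested members (rows, by class) in the 5 comparisons (columns), with an asterisk where the adjusted p passed 0.05. The core rows are low throughout starved against control, and Nfe2l1 is the row that is high there; comparisons that share a group are not independent.

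The balance of cap to core mRNA can be read within a library, so that no scaling between libraries enters. The 14 core genes together held 3443, 3475 and 3664 TPM in Rap libraries, 4160.3, 4024 and 3844 in re-added, 3121, 2946 and 3023 in starved and 4747, 4738 and 4196 in control libraries. The 20 cap genes together held 2642, 2580.1 and 2574 TPM in Rap libraries, 3379, 3350.3 and 3338 in re-added, 2538, 2483 and 2453 in starved and 3219, 2971 and 2985 in control libraries. The ratio of cap to core was 0.767, 0.743 and 0.702 in Rap, 0.812, 0.833 and 0.868 in re-added, 0.813, 0.843 and 0.812 in starved and 0.678, 0.627 and 0.711 in control libraries. Every starved and every re-added library thus lay above every control library, starved and re-added libraries overlapped, and every Rap library lay below every re-added one and overlapped the control range. Starved replicate 1, at the marker level of the controls, had a ratio of 0.813. The cap sums include the assembly chaperones Psmd5, Psmd9 and Psmd10. The ratios are described without a test.

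**Figure D4:**
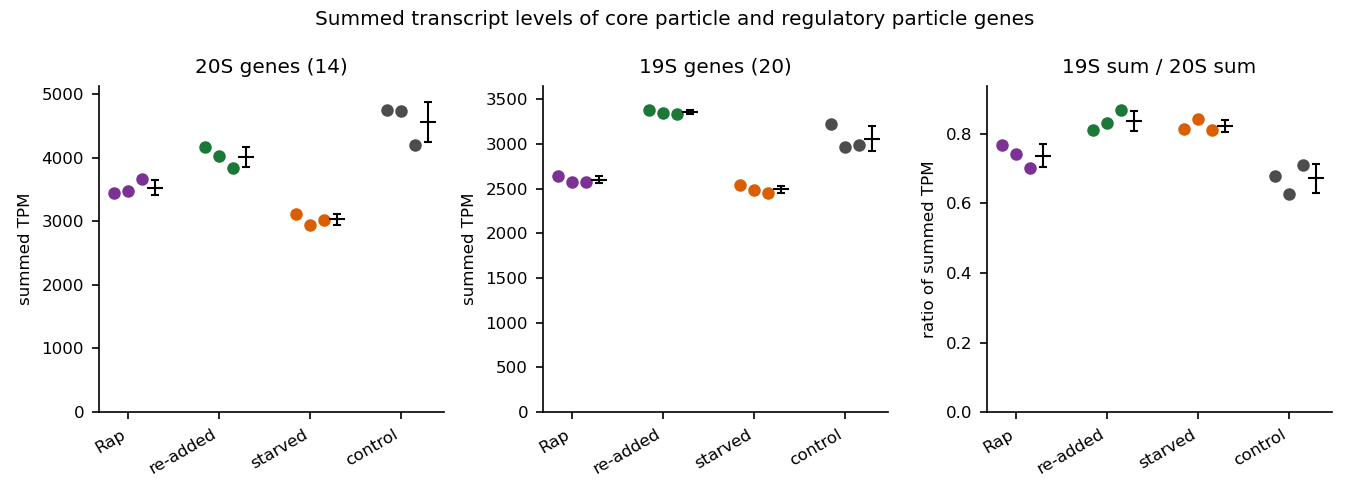
Summed TPM of the 14 constitutive 20S genes and of the 20 19S genes, and their ratio, in each library by group (Rap, re-added, starved, control). The ratio lies at 0.812 to 0.868 in re-added and 0.812 to 0.843 in starved libraries, against 0.627 to 0.711 in control libraries, with Rap libraries at 0.702 to 0.767.

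The immunoproteasome subunits varied widely within the starved and re-added groups. Psmb8, Psmb9 and Psmb10 replace Psmb5, Psmb6 and Psmb7 in the core of cells of the immune system or under interferon. Psmb9 (chr17:34181988-34187764, minus) had 7.28, 5.97 and 6.43 TPM in Rap libraries, 14.2, 6.30 and 7.24 in re-added, 25.9, 6.97 and 14.4 in starved and 24.4, 27.6 and 26.3 in control libraries. The libraries above 14 TPM were the 6 with a marker sum of 817 CPM or more, and those below 8 TPM were the 6 with 121 CPM or less. Psmb8 (chr17:34197721-34201454, plus) had 19.3, 17.0 and 19.4 TPM in Rap libraries, 32.1, 17.7 and 18.6 in re-added, 51.9, 16.3 and 29.3 in starved and 47.7, 56.2 and 52.6 in control libraries. Psmb10 (chr8:105935735-105938444, minus) had 25.5, 28.1 and 26.3 TPM in Rap libraries, 51.1, 37.4 and 35.6 in re-added, 63.9, 31.1 and 43.0 in starved and 52.8, 60.5 and 57.3 in control libraries. All 3 genes split along the same line between libraries. It runs through the starved and re-added groups, with all control libraries on the high side and all Rap libraries on the low side, so for the control and Rap groups marker level and treatment cannot be told apart.

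As tested on counts, Psmb8 passed in starved against control (log2 fold change -0.84 ± 0.30 SE, adjusted p = 0.045), from 45.3, 16.5 and 28.04 CPM in starved libraries, against 47.6, 63.1 and 51.3 CPM in control libraries. This call was lost in 11 of 17 alternatives, the marker covariate and libraries with like marker levels among them. Psmb9 (-0.89, adjusted p = 0.0671) and Psmb10 (-0.45, adjusted p = 0.0803) did not pass there. None of the 3 passed in re-added against starved or in Rap against re-added. In re-added against control all 3 were lower, at -1.30 (adjusted p = 0.00599) for Psmb8, -1.61 (adjusted p = 0.00481) for Psmb9 and -0.57 (adjusted p = 0.03) for Psmb10. In Rap against starved, Psmb9 was -1.11 (adjusted p = 0.0308) and Psmb10 -0.64 (adjusted p = 0.021). With the marker sum as a covariate none of these 5 calls held: re-added against control gave -0.258 for Psmb8, -0.362 for Psmb9 and 0.042 for Psmb10, and Rap against starved gave 0.087 for Psmb9 and -0.117 for Psmb10. With 1 library left out, Psmb9 in Rap against starved ran from -1.482 without starved replicate 2 to -0.628 without starved replicate 1, and Psmb10 from -0.869 to -0.394 without the same libraries. In TPM, Psmb9 was 2.66, 2.28 and 2.24% of Psmb6 in Rap libraries, 4.53, 2.11 and 2.54% in re-added, 12.2, 3.58 and 6.74% in starved and 7.49, 7.53 and 8.34% in control libraries. Psmb8 was 2.77 to 11.3% of Psmb5 over the 12 libraries. Psmb10 was 17.3, 19.5 and 17.8% of Psmb7 in Rap libraries, 29.7, 22.0 and 21.8% in re-added, 52.5, 27.5 and 35.3% in starved and 26.5, 32.2 and 32.3% in control libraries. In TPM the constitutive gene was the higher of each pair in every library, most narrowly for Psmb10 and Psmb7 in starved replicate 1. These percentages depend on the exon lengths used, such as 1705 bases for Psmb10 and 3421 for Psmb7. In CPM, starved replicate 1 had 34.8 for Psmb10 against 133 for Psmb7, and 45.3 for Psmb8 against 128 for Psmb5. The pseudogenes Psmb5-ps, Psmb6-ps, Psmb6-ps2 and Psmb7-ps2 had 0 to 53 reads over all libraries, so few reads of Psmb5 to Psmb7 were assigned to these copies. Psmb9 overlaps the exons of Tap1 on the other strand over 5.8% of its length, and reads in that stretch may be shared. Over all libraries Tap1 had 13250 reads, against 5002 for Psmb9. Tap1 had 82.0, 34.1 and 51.4 CPM in starved libraries, in the order of the marker sum. What such reads add to Psmb9 was not tested. Of 12 genes of antigen presentation and interferon response, listed with earlier results known, 1 was higher and 2 were lower in starved against control cells. The shares of all genes tested there were 24.3% higher and 14.6% lower. In re-added against starved cells 1 was lower, against 18.8% of all genes. In Rap against re-added cells 0 were called, against 7.98% of all genes. In Rap against starved cells 7 were lower (58.3%), against 23.9% of all genes. In re-added against control cells 11 were lower (91.7%) and 1 higher (8.33%), against 24.5% lower and 24.8% higher of all genes. In both of these last comparisons the groups differ in the marker sum.

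**Figure D5:**
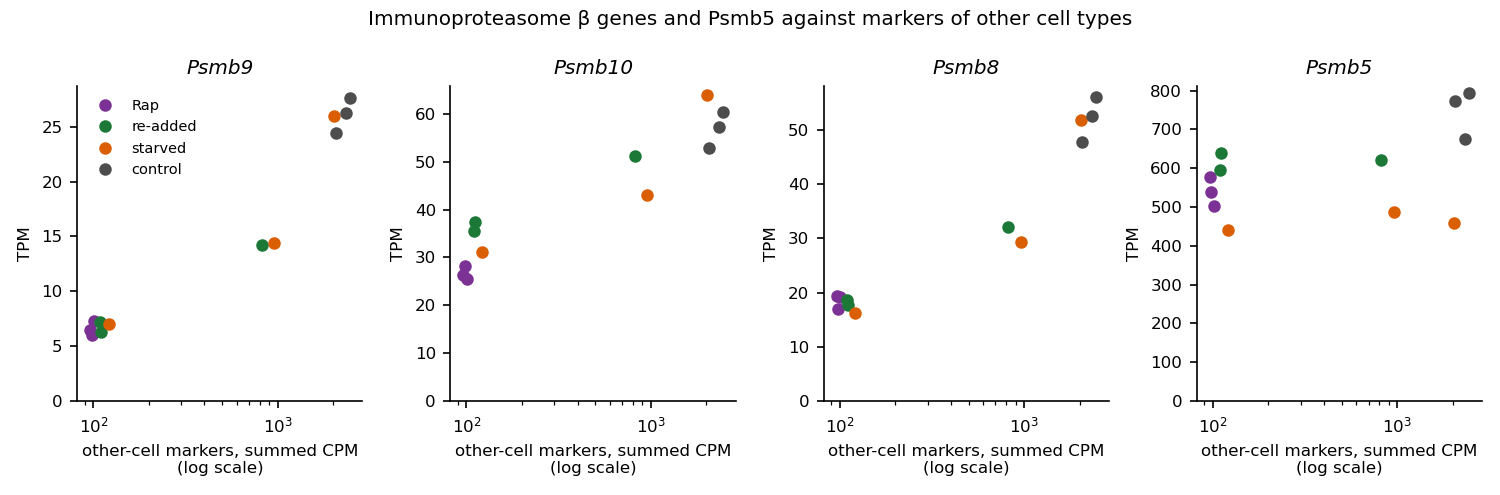
TPM of Psmb9, Psmb10, Psmb8 and Psmb5 in each library (vertical axes) against the summed CPM of 30 markers of fibroblasts, leukocytes and endothelium (horizontal axis, log scale), coloured by group. Psmb8 and Psmb9 are highest in the 6 libraries with a marker sum of 817 CPM or more, including starved replicates 1 and 3 and re-added replicate 1; Psmb5 is low in all 3 starved libraries, whatever their marker sum.

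Genes that act with the proteasome were read from a list of 40 names, of which 38 were tested. In starved against control cells 13 were higher and 8 lower (55.3% called, against 38.9% of all genes). In re-added against starved cells 12 were higher and 7 lower (19 of 38 called, against 37.3%), and in Rap against re-added cells 2 were higher and 3 lower (13.2%, against 7.98%). Some of the listed genes bring NFE2L1 to its active form. Ddi2, the protease that cuts it, was 0.52 in starved against control cells (adjusted p = 0.00818) and did not pass afterwards. Ngly1, which deglycosylates it, and Vcp, the ATPase that extracts it from the membrane, did not pass on starvation (-0.03 and -0.10) and rose on re-addition, by 0.47 (adjusted p = 0.000212) and 0.50 (adjusted p = 0.000481). Nfe2l2, a relative of Nfe2l1, and the small Maf partners of both were also listed. Nfe2l2 averaged 38.7 ± 2.33 CPM in Rap, 37.2 ± 1.65 in re-added, 62.5 ± 3.35 in starved and 45.7 ± 2.71 in control libraries (SD, n = 3 each). It was higher on starvation (0.45, adjusted p = 0.000687) and lower on re-addition (-0.75, adjusted p = 1.74e-05), a step at which Nfe2l1 was at 0.03. Mafg was 0.61 and then -1.19 (adjusted p = 2.01e-06 on re-addition), with Maff and Mafk in the same directions.

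Factors that bind the particle were also listed. Pomp, the maturation factor of the core, fell by 0.83 on the log2 scale in starved cells (adjusted p = 6.04e-05) and did not pass on re-addition (0.26, adjusted p = 0.0509). Adrm1, a ubiquitin receptor of the cap, was -0.38 in starved against control and 0.45 in re-added against starved cells (adjusted p = 0.000923). The deubiquitinases that bind the cap were lower with Rap, Usp14 at -0.38 (adjusted p = 0.0135) and Uchl5 at -0.41 (adjusted p = 0.0192). Both were higher in re-added than starved cells, Usp14 at 0.48 and Uchl5 at 0.44 (adjusted p = 0.00077 and 0.00299).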

How the data were processed

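RNA of 12 MIN6 libraries was extracted with TRIzol and a column kit and sequenced as paired ends, per the labels' protocols. The authors deposited read counts per Ensembl gene for each library and a table of TPM values. The submitters' processing notes name the build GRCm38.p6 and the tools limma 3.46.0 and Subread 2.0.1, without roles. Aligner and strand setting: not given in the sources used here. Genes whose exons overlap, or that have pseudogene copies, may thus share reads. The deposited TPM values equal counts per exon length rescaled to a fixed total, within 5e-05. All 12 TPM columns were assigned to libraries by their headers.

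Counts were tested in R 4.3.3 with the quasi-likelihood test of edgeR 4.0.16, tried first on simulated data. Genes were kept by filterByExpr (at least 10 reads in enough libraries and 15 in all), keeping 99.9% of the counts in 16844 of 49315 genes. One fit held all 12 libraries with 4 group means, TMM scaling and 8 residual degrees of freedom, and p-values were adjusted by Benjamini-Hochberg over all tested genes at a threshold of 0.05. CPM values use TMM-scaled totals, except marker sums, which use raw totals. Starved was compared with control, re-added with starved, and Rap with re-added, its parallel 3 h group (3 main comparisons). Another 2 contrasts, re-added with control and Rap with starved, were secondary. The comparisons share libraries and are not independent.

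The members, the gene lists and the tests were chosen with earlier results of these data known, and some listed genes are not reported here. Values in each library are given for Nfe2l1, Psmb5 to Psmb10 and the member with the largest called change of each class in each main comparison, with Psmd12, Psme3 and others added for their pattern. Alternatives were DESeq2 1.42.0, other size factors, no filter, single-comparison fits, limma 3.58.1 on log2(TPM + 1) and log2(TPM + 0.1), a replicate block, the marker sum as a covariate, libraries with like marker levels, and each library left out. Promoter windows are RefSeq's for GRCm38.p6, the build of the files, matched by symbol.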

Additional observations from a re-analysis of the deposited data

How the results depend on the processing

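The count of members called in starved against control cells was 34 and ran from 28 to 42 over all alternatives, and leaving out 1 library gave 31 to 37. In re-added against starved cells it was 31, and 28 to 35 with 1 library left out. With libraries of like marker levels, an alternative added after the data were seen, it was 15; such fits hold 1 starved library wherever the starved group enters, assumed to vary like the other groups, and no such fit could be made for re-added against control. In Rap against re-added cells the count was 11, and 26 with limma at either pseudocount, 24 with limma and no minimum, 27 with 6 libraries, and 2 to 10 with 1 library left out, all lower in Rap. In Rap against starved cells it was 22, 9 with like marker levels and 12 to 20 with 1 library left out. In re-added against control cells it was 27, 4 with the marker covariate and 12 to 27 with 1 library left out. The number of all genes called moved with the fit as well. In Rap against starved cells it was 3399 higher and 4025 lower, and 2513 and 2427 without Rap replicate 3. In re-added against control cells it was 4172 and 4132, 1437 and 1421 with the covariate, and 3054 and 2154 without re-added replicate 3. The causes were not tested.

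Nfe2l1 in re-added against starved cells was 0.03 and turned to -0.009 with the covariate, neither passing. In Rap against re-added cells it passed with DESeq2 (-0.195) and with 6 libraries (-0.210). In Rap against starved cells it passed with limma (-0.274 at pseudocount 0.1, -0.272 at 1) and with 6 libraries (-0.158). The immunoproteasome genes reversed sign in places. In re-added against starved cells Psmb10 turned to 0.219 with like marker levels, 0.188 with the covariate and 0.166 without starved replicate 1, and Psmb8 to 0.141, 0.092 and 0.004; with 1 library left out their lowest values were -0.309 for Psmb10 and -0.795 for Psmb8. In Rap against re-added cells Psmb8 turned to 0.113, 0.227 and, without re-added replicate 1, 0.113, and Psmb9 to 0.034, 0.143 and 0.034, the last against -0.592 without re-added replicate 2. With the covariate Psmb9 in Rap against starved cells was 0.087 and Psmb10 in re-added against control cells 0.042.

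Upper-quartile factors moved the median of all genes in starved against control cells to -0.13, with 2961 genes higher and 3679 lower rather than 4101 and 2458; the core median was then -0.86 and the cap median -0.45. Limma on TPM with a minimum moved it to 0.15 at pseudocount 1 and 0.17 at 0.1, with 5388 and 5357 genes higher and 1984 and 1887 lower, a core median of -0.58 and a cap median of -0.18; without the minimum the all-gene median was 0. In re-added against control cells these 2 limma fits had all-gene medians of 0.14 and 0.16, with 5093 and 5068 genes higher and 2932 and 2823 lower rather than 4172 and 4132. With the replicate number as a block the counts were 34, 32, 8, 22 and 23 in the order above. Same-numbered libraries correlated at -0.332 to 0.812 over 18 pairs and others at -0.83 to 0.631 over 36. Libraries within the starved and re-added groups differ in marker level, so these correlations cannot decide whether the numbers pair the libraries.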

Other observations

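The list also held ubiquitin genes and stress genes. Ubb, a polyubiquitin gene, was -0.71 on the log2 scale in re-added against starved cells (adjusted p = 0.000149) and 0.43 in Rap against re-added cells (adjusted p = 0.018). Rps27a, which encodes ubiquitin fused to a ribosomal protein, was lower in starved than control cells, at -0.36 (adjusted p = 0.0389). Zfand2a, a proteasome-binding stress gene, averaged 59.5 ± 2.80 CPM in Rap, 57.1 ± 0.388 in re-added, 99.6 ± 9.65 in starved and 42.9 ± 5.65 in control libraries (SD, n = 3 each). It was the listed gene with the largest rise on starvation (log2 fold change 1.21 ± 0.10 SE, adjusted p = 4.56e-06) and was lower on re-addition (-0.80, adjusted p = 6.2e-05).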
